A study of Mus musculus with 5 samples.

Results

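The genes described here are 10 genes of MHC class II antigen presentation and of Langerhans cells, the dendritic cells of stratified epithelium, measured in mouse esophagus. They are H2-Aa, H2-Ab1, H2-Eb1, H2-DMa, H2-DMb1, Cd74, Ciita, Cd207, Itgax and Cd86, and all probe sets that carry one of these symbols and no other were taken. This gave 18 of the 45101 probe sets on the array, for 9 of the 10 genes. H2-DMb1 has no such probe set, because both probe sets that carry its symbol carry a second one too, so it has no value here.

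The Dox group consists of 3 arrays (replicates 1, 2 and 3) of esophagus RNA from mice fed doxycycline, and the NoDox group of 2 arrays (replicates 1 and 2) from mice on a regular diet. All mice carried the CC10-rtta/teton-IL-13 transgenes on the FVB/N background and were 3 to 4 months old. The CC10 promoter is active in club cells of the airway, where it drives a transactivator that doxycycline switches on, and this in turn starts the IL-13 transgene. A doxycycline-fed group without the transgenes was not analysed here, so an effect of the diet and one of the transgene cannot be told apart. Each value is a ratio to the mean of both NoDox arrays, so 1 stands for the NoDox mean. The labels leave unsaid whether the arrays hold different animals, so a p-value here covers the spread of 5 arrays, and their small number limits the precision. Signals are given in steps, the smallest unit in which the array software stored them.

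MHC class II molecules are pairs of an alpha and a beta chain that show peptides from outside the cell to CD4 T cells. The invariant chain encoded by Cd74 escorts new pairs to the endosome and blocks their groove, and the DM molecule helps to exchange its remnant for peptide. Transcription of this group of genes depends on the coactivator CIITA, which binds no DNA itself and is recruited by factors on the X and Y boxes of their promoters. Langerhans cells carry class II constitutively and express langerin, the lectin encoded by Cd207. Dendritic cells, macrophages and B cells carry class II as well, and in bulk tissue more cells of a type and more RNA per cell cannot be told apart.

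The arrays behaved as follows over all genes. The test was limma's moderated test with p-values adjusted after Benjamini and Hochberg, and the threshold an adjusted p under 0.05. In Dox 253 of 18193 genes (1.39%) were higher and 231 (1.27%) lower, and the median log2 fold change was -0.08. Quantile normalization turned this split into 308 and 113, and centring of the arrays on their medians into 300 and 157. The esophageal keratins Krt5 and Krt13 had mean NoDox signals of at least 41410 and 51774 steps. Krt5 had ratios of 0.866 to 1.16 in Dox and 0.913 to 1.09 in NoDox, and Krt13 of 0.800 to 0.915 in Dox and 0.964 to 1.04 in NoDox (log2 fold changes 0.02 and -0.20, neither past the threshold). Of 8 genes of esophageal epithelium 1 rose and 0 fell (1.39% and 1.27% of all genes). The gene that rose was Krt6a (1.80 ± 0.13, adjusted p = 0.000168, limma). All Dox arrays were above both NoDox arrays in 3 of the 8 (13.6% of all genes) and below both in 3 (22.3%). Dox replicate 3 stood apart in genes of B cells. The median ratio of 8 B cell genes was 1.25, 1.61 and 11.7 in Dox replicates 1, 2 and 3, against 1.16 and 0.836 in NoDox replicates 1 and 2. Results for the members are therefore also given without Dox replicate 3.

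All 9 measured members were higher in each Dox array than in either NoDox array. Of all genes tested 13.6% showed that separation. By the test 5 members rose, namely Cd207, Itgax, H2-Ab1, Cd74 and H2-Aa, and 0 fell, read against the 1.39% of all genes that were higher and the 1.27% that were lower. H2-Eb1, H2-DMa, Ciita and Cd86 did not pass. The members' median log2 fold change was 1.47, against -0.08 for all genes. Without Dox replicate 3 the count was 4 (0.621% of all genes higher). It was 2 without NoDox replicate 1 (0.291%) and 2 without NoDox replicate 2 (0.352%), and in both fits the members called were Cd207 and H2-Ab1. Without Dox replicate 1 it was 5 (0.995%), and without Dox replicate 2 it was 6 (2.15%). The fit lets the spread depend on a signal level recovered from the ratios, or on its lower bound, as for H2-Aa, H2-Ab1 and Cd74. With no such trend 0 members and 6 of all genes (0.033%) were higher (9 members and 2434 genes at unadjusted p under 0.05), so the calls rest on this model of the spread.

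**Figure D1:**
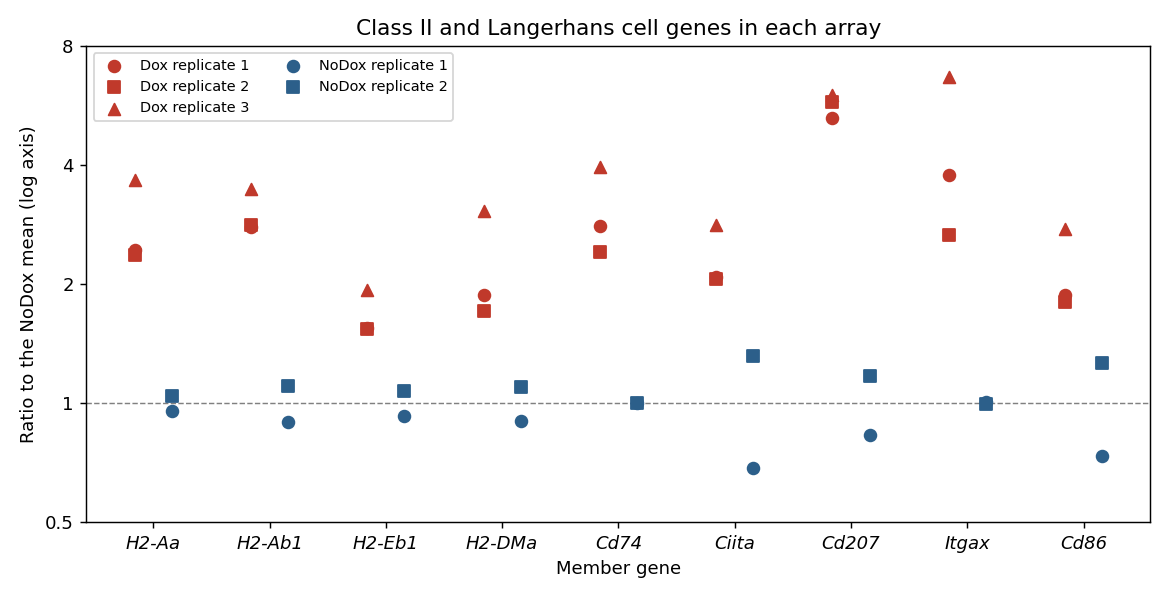
Ratio to the NoDox mean (log axis) of the 9 measured member genes, 1 point per array, with Dox arrays in red on the left and NoDox arrays in blue on the right of each gene. Every Dox point lies above both NoDox points, Dox replicate 3 (triangle) is the highest point of every gene, and Cd207 has the tightest Dox points, at 5.26 to 6.03.

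The classical class II chains come first. H2-Ab1, the beta chain of I-A, had ratios of 2.79, 2.83 and 3.47 in Dox replicates 1, 2 and 3, against 0.896 and 1.10 in NoDox replicates 1 and 2. The groups did not overlap, and the Dox arrays lay within 1.24-fold of each other. H2-Ab1 rose by a log2 fold change of 1.60 ± 0.16 (SE, adjusted p = 0.00135, limma with Benjamini-Hochberg adjustment), or 3.03-fold, and by 1.50 without Dox replicate 3 (adjusted p = 0.00900). Its adjusted p stayed at or below 0.0405 in the 5 fits that each left out 1 array.

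H2-Aa encodes the alpha chain that pairs with it. Its ratios were 2.44, 2.36 and 3.67 in Dox, against 0.958 and 1.04 in NoDox. Dox replicate 3 was the highest, and the lowest Dox array was still above the higher NoDox array. H2-Aa rose by 1.47 ± 0.20 (2.77-fold, adjusted p = 0.00673, limma) and by 1.27 without Dox replicate 3 (adjusted p = 0.0136). The call was lost without NoDox replicate 1 (adjusted p = 0.132) and without NoDox replicate 2 (adjusted p = 0.0893). 

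H2-Eb1 encodes the beta chain of I-E. It had ratios of 1.55, 1.54 and 1.94 in Dox, against 0.925 and 1.075 in NoDox. Its log2 fold change of 0.74 ± 0.21 was the smallest of the members, and it was not past the threshold (adjusted p = 0.114, limma). In the fits without 1 array it stayed between 0.63 and 0.85, with adjusted p from 0.0893 to 0.504. H2-Ea, which encodes the alpha chain of I-E and is annotated as a transcribed pseudogene in the C57BL/6J reference, had ratios of 2.02, 1.69 and 2.62 in Dox and 1.08 and 0.918 in NoDox (1.06 ± 0.29, adjusted p = 0.101).

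The proximal promoters of H2-Aa and H2-Eb1 are shown because they carry the X and Y boxes through which CIITA acts. They are RefSeq sequences of the C57BL/6J reference, build GRCm38.p6, 5′ to 3′ on the strand of the gene, and the FVB/N sequence may differ. H2-Aa lies on the minus strand and its stretch is chr17:34287842-34287944, from 121 to 19 bases before the start. H2-Eb1 lies on the plus strand and its stretch is chr17:34305736-34305837, from 131 to 30 bases before the start. Capitals mark a core of the X box, GNAAC (N is any base), and a Y box core, TGATTGG.
H2-Aa: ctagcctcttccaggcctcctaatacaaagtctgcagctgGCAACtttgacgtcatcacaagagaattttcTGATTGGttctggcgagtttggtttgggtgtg
H2-Eb1: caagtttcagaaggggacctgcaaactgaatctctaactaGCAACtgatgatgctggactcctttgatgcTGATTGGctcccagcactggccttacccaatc
From the first base of one core to the first base of the other are 31 bases in H2-Aa and 30 in H2-Eb1. Of the 10 genes 6 have a window in the table of promoters (250 bases before to 50 after the start), in 7 windows. This pair, with the cores 20 to 40 bases apart and searched on both strands, was in 3 of them, those of H2-Aa, H2-Eb1 and H2-DMb1 (31 bases apart). It was in 187 of 32851 windows of the same length (0.569%), and TGATTGG alone in 7.82%. The letters were chosen with these sequences in view, so the matches are a description. H2-Aa and H2-Eb1, both with the pair, had log2 fold changes of 1.47 and 0.74.

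The next members load peptide onto class II. Cd74 had ratios of 2.81, 2.41 and 3.95 in Dox, against 1.002 and 0.998 in NoDox. Both NoDox arrays were almost equal, and every Dox array was at least 2.41. Cd74 rose by 1.58 ± 0.20 (2.99-fold, adjusted p = 0.00504, limma), and by 1.38 without Dox replicate 3 (adjusted p = 0.0114). Its call was lost without NoDox replicate 1 (adjusted p = 0.0990) and without NoDox replicate 2 (adjusted p = 0.0872).

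H2-DMa, the alpha chain of the peptide exchange factor DM, had ratios of 1.88, 1.71 and 3.06 in Dox, against 0.902 and 1.10 in NoDox. Dox replicates 1 and 2 were close to each other and Dox replicate 3 was 1.79 times the lowest of them. The log2 fold change was 1.10 ± 0.24, just outside the threshold (adjusted p = 0.0502, limma). It passed without Dox replicate 2 (1.27, adjusted p = 0.0180), and had an adjusted p of 0.0983 without Dox replicate 3. A second, dim probe set of H2-DMa scattered from 0.146 to 0.926 in Dox and was 0.188 and 1.81 in NoDox, with overlapping groups. With the median of both probe sets the log2 fold change of H2-DMa was 0.005. "Dim" here means a mean signal over the 5 arrays below 774 steps, the 25th percentile of recovered levels.

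Ciita, the coactivator, had ratios of 2.08, 2.06 and 2.83 in Dox, against 0.686 and 1.31 in NoDox. The groups did not overlap, but both NoDox arrays lay far apart for this gene. Its log2 fold change of 1.27 ± 0.40 was not past the threshold (adjusted p = 0.146, limma), and it ranged from 0.80 without NoDox replicate 1 to 1.74 without NoDox replicate 2. Of its other probe sets one was dim and had ratios of 7.98, 10.8 and 24.6 in Dox, against 0.973 and 1.03 in NoDox (3.69 ± 0.79, adjusted p = 0.0704 over all probe sets). The third was dim too and overlapped between the groups, at 2.80, 0.608 and 1.04 in Dox and 1.83 and 0.173 in NoDox. The probe sets of Ciita thus differed in size, and none passed the threshold.

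The remaining members are genes of antigen-presenting cells. Cd207, the langerin gene, had ratios of 5.26, 5.77 and 6.03 in Dox, against 0.831 and 1.17 in NoDox. These Dox values lay within 1.15-fold of each other, the narrowest range among the members. Cd207 rose by 2.53 ± 0.22 (5.76-fold, adjusted p = 0.000627, limma), the largest log2 fold change among the 9 member genes and place 140 of 18193 genes. It kept its call in all 5 fits without 1 array (adjusted p up to 0.0131), at 2.48 without Dox replicate 3. With an offset added to the signal the value was 2.21. Which cells carried Cd207 was not tested.

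Itgax encodes the integrin chain CD11c, carried by dendritic cells and by alveolar and some other macrophages. It had ratios of 3.78, 2.67 and 6.69 in Dox, against 1.01 and 0.994 in NoDox. The Dox arrays were spread over 2.51-fold, the widest range among the member genes. Itgax rose by 2.03 ± 0.36 (4.07-fold, adjusted p = 0.0221, limma). The call was lost without Dox replicate 3 (1.67, adjusted p = 0.0638), without NoDox replicate 1 (adjusted p = 0.190) and without NoDox replicate 2 (adjusted p = 0.190).

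Cd86 encodes a costimulatory ligand for CD28 on T cells. It had ratios of 1.88, 1.81 and 2.76 in Dox, against 0.735 and 1.27 in NoDox, and was not past the threshold (1.13 ± 0.34, adjusted p = 0.127, limma). Its log2 fold change was 0.74 without NoDox replicate 1 and 1.52 without NoDox replicate 2. A second probe set of Cd86 overlapped between the groups, at 2.74, 1.54 and 1.94 in Dox and 1.86 and 0.137 in NoDox. Cd80, the other CD28 ligand of this kind, had a log2 fold change of 0.31 ± 0.33 (adjusted p = 0.688).

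**Figure D2:**
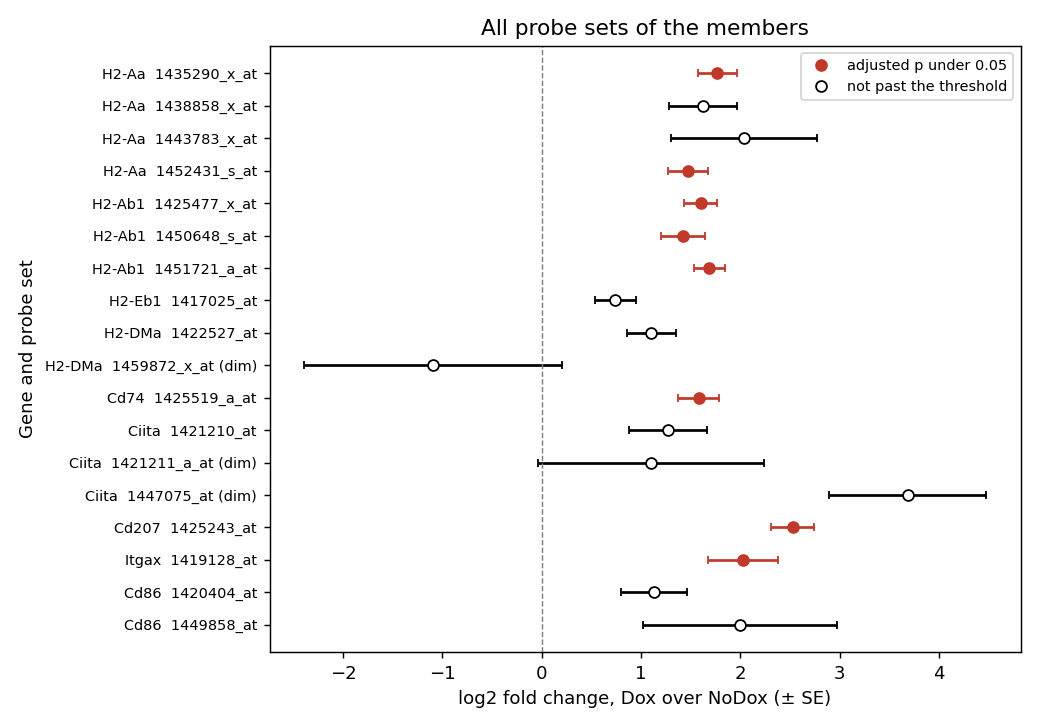
Log2 fold change of Dox over NoDox with its standard error (x axis) for the 18 probe sets of the members (y axis), from 3 Dox and 2 NoDox arrays, filled red where the adjusted p over all probe sets is under 0.05. All but 1 probe set lie above 0, and the dim probe sets have wide error bars.

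Each probe set was also tested on its own over 45037 probe sets. Of the 18 of the members 8 were higher and 0 lower, where 0.608% and 0.548% of all probe sets were. They comprised all 3 of H2-Ab1 (1.42 to 1.69), 2 of the 4 of H2-Aa (1.47 and 1.77) and those of Cd74, Cd207 and Itgax. The other probe sets of H2-Aa had log2 fold changes of 1.62 and 2.04, with all Dox arrays above both NoDox arrays (adjusted p = 0.0650 and 0.252). Over all 18 probe sets 15 had that separation, against 12.4% of all probe sets, 0 had all Dox arrays below, against 19.7%, and 3 overlapped. By the array maker's naming, probe sets ending in _s_at and _x_at can match transcripts of more than 1 gene, and class II genes differ between strains, so H2-Aa and H2-Ab1 may share signal with their relatives.

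Dox replicate 3 was the highest Dox array for 9 of 9 member genes. The same array was the highest for 46.6% of the 253 genes higher in Dox and for 29.6% of all genes tested. Dox replicate 2 was the lowest for 7 of the 9, and for 56.9% of the 253 genes higher in Dox and 38.9% of all genes tested. The excess of Dox replicate 3 over the lowest Dox array was large for Itgax, H2-DMa and Cd74 (2.51-fold, 1.79-fold and 1.64-fold) and small for Cd207 (1.15-fold), H2-Ab1 (1.24-fold) and H2-Eb1 (1.25-fold). Without Dox replicate 3 every member still had a log2 fold change above 0, from 0.63 for H2-Eb1 to 2.48 for Cd207.

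Other genes of the class II pathway were read from the same fit. Of 23 such genes, all measured, 1 rose and 0 fell, where 1.39% and 1.27% of all genes did. Their median log2 fold change was 0.29, against -0.08 for all genes. In 10 of them all Dox arrays were above both NoDox arrays, where 13.6% of all genes were, and in 2 all were below, where 22.3% were. The gene that rose was Cd40, the receptor through which T cells activate antigen-presenting cells. Cd40 had ratios of 2.99, 2.63 and 4.57 in Dox, against 1.01 and 0.993 in NoDox (1.72 ± 0.35, adjusted p = 0.0357, limma). The count was 5 without Dox replicate 2 and 0 without any other single array.

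Among the relatives of DM, H2-DMb2 had ratios of 1.53, 2.33 and 4.05 in Dox and 1.16 and 0.838 in NoDox (1.30 ± 0.41, adjusted p = 0.138). H2-Ob encodes a chain of DO, the modulator of DM that B cells carry. It had ratios of 4.12, 2.58 and 22.3 in Dox, against 1.45 and 0.555 in NoDox, so that Dox replicate 3 was far above the others (2.79 ± 0.83, adjusted p = 0.122). H2-Oa, for the other chain of DO, was 0.974, 0.622 and 3.62 in Dox and 0.838 and 1.16 in NoDox. Both DO genes were thus highest in Dox replicate 3, as were the median of the B cell genes and all 9 measured members.

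Of the endosomal proteases, Ctss cleaves the invariant chain in professional antigen-presenting cells. It had a log2 fold change of 1.28 ± 0.29 (adjusted p = 0.0539), and Ctsh one of 0.73 ± 0.17 (adjusted p = 0.0570), with all Dox arrays above both NoDox arrays in each. Ctsl (0.06), Lgmn (-0.12) and the thiol reductase Ifi30 (0.12) had overlapping groups. Of the genes of the X and Y box factors Rfx5 was at 0.29, Rfxap at 0.38, Rfxank at -0.15, Nfya at 0.11, Nfyb at -0.47 and Nfyc at -0.09, and none of them passed the threshold. All Dox arrays were above both NoDox arrays for Rfxap and below both for Nfyb (adjusted p = 0.282). The ubiquitin ligase gene Marchf1, whose product removes class II and CD86 from the surface, was at 1.66 ± 0.50 (adjusted p = 0.128), and the related Marchf8 at -0.51 ± 0.13 (adjusted p = 0.0824). The maturation marker Cd83 was at 1.35 ± 0.36 (adjusted p = 0.0884).

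Ciita is induced by interferon gamma in many cells, and IL-4 and IL-13 signal through STAT6. Of 12 measured genes of these routes 1 rose and 0 fell (1.39% and 1.27% of all genes), with a median log2 fold change of 0.29. The gene that rose was the receptor chain Il4ra (2.11 ± 0.25, adjusted p = 0.00305, limma). Ifng was dim and overlapped between the groups, at 0.223, 2.04 and 0.192 in Dox and 1.80 and 0.199 in NoDox. Irf8 (1.36 ± 0.31, adjusted p = 0.0590) and Irf1 (0.49 ± 0.15, adjusted p = 0.122) were higher in every Dox array than in both NoDox arrays, as was Cxcl10 (1.06 ± 0.44, adjusted p = 0.258), and Ifngr2 was lower in every Dox array (-0.46 ± 0.21, adjusted p = 0.293). The groups overlapped for Gbp2 (0.33), Cxcl9 (0.38), Ifngr1 (0.24), Jak1 (-0.08), Jak2 (0.20) and Stat6 (-0.05). Apart from Il4ra no gene of this list passed the threshold.

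**Figure D3:**
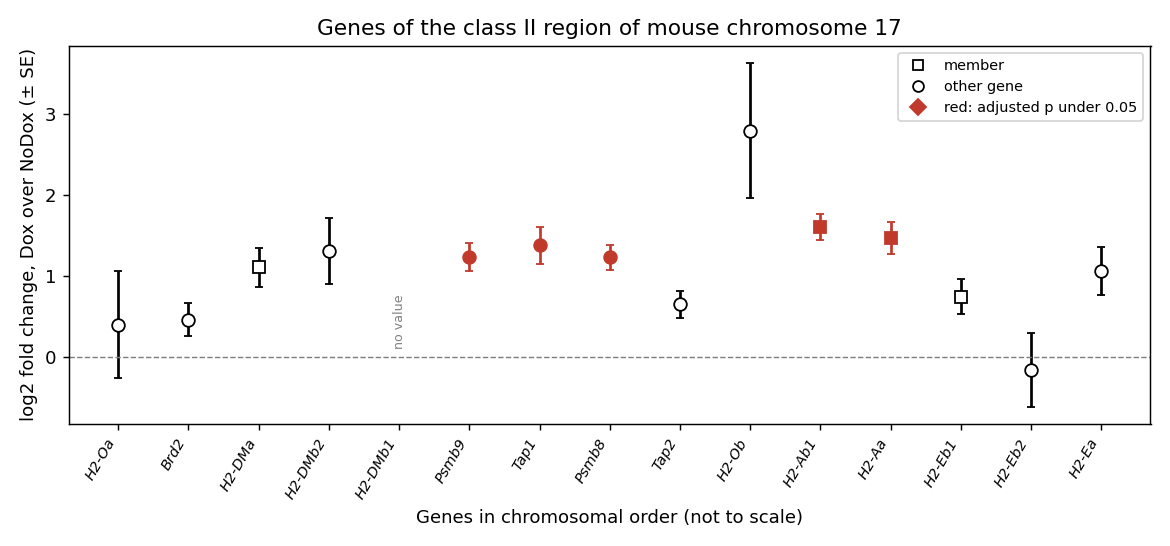
Log2 fold change of Dox over NoDox with its standard error (y axis) for the genes from H2-Oa to H2-Ea in their order on mouse chromosome 17 (x axis, not to scale). Squares are members, red marks an adjusted p under 0.05, and H2-DMb1 has no value.

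Most class II genes lie side by side on mouse chromosome 17, in a stretch that also holds class I processing genes. Of the 15 genes from H2-Oa to H2-Ea 14 had a value, and 13 of these were above 0, where 7637 of 18193 genes were. All Dox arrays were above both NoDox arrays in 11 (13.6% of all genes), and 5 rose (1.39% of all genes). Beside H2-Ab1 and H2-Aa these were the immunoproteasome subunits Psmb9 (1.23 ± 0.17) and Psmb8 (1.23 ± 0.16) and the peptide transporter Tap1 (1.37 ± 0.22). The groups overlapped in the other 3, H2-Oa (0.40 ± 0.66), the bromodomain gene Brd2 (0.45 ± 0.20) and H2-Eb2 (-0.16 ± 0.45).

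**Figure D4:**
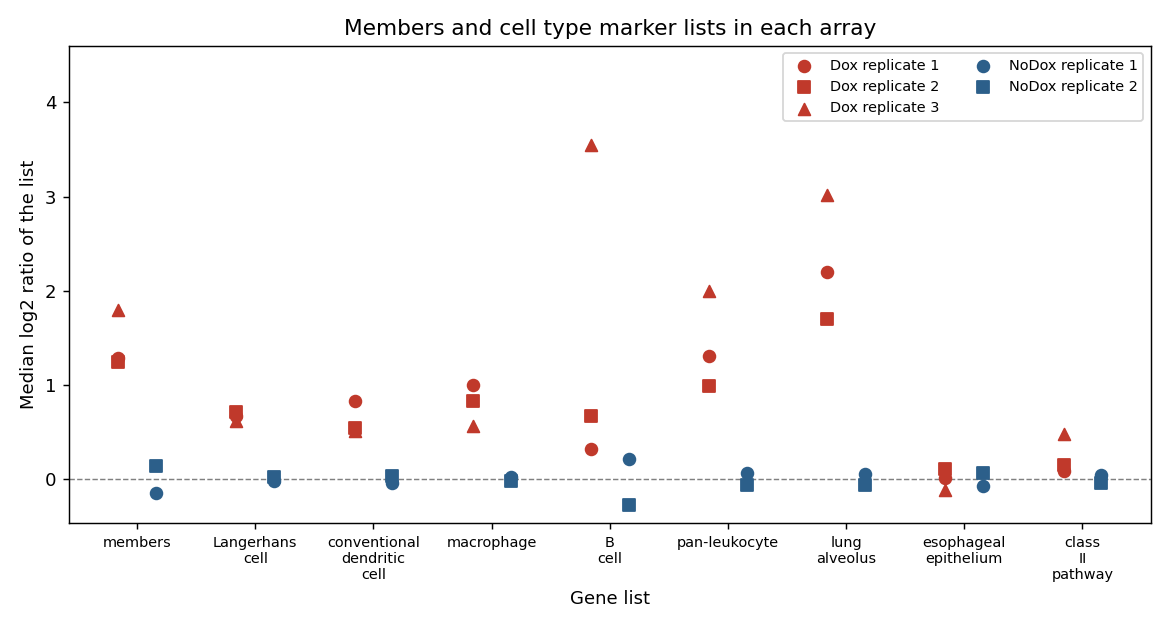
Median log2 ratio (y axis) of the members and of marker gene lists (x axis) in each array, with Dox arrays in red on the left and NoDox arrays in blue on the right. The B cell list stands out in Dox replicate 3 (median ratio 11.7, against 1.25 and 1.61 in the other Dox arrays). The lung list is high in all Dox arrays, and the median of the Langerhans cell list differs little among the Dox arrays.

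Markers of the cells that carry class II were read beside the members. In this and the next paragraphs each count is to be read against the 1.39% of all genes that were higher and the 1.27% that were lower. For the fits without 1 array the shares are those given above for the members. The list of Langerhans cell genes without Cd207 had 3 of 13 genes higher and 0 lower, with a median of 0.72. They were the growth factor receptor Csf1r (0.80 ± 0.14), Tgfb1 (1.01 ± 0.20) and Mfge8 (0.96 ± 0.19), which macrophages and other cells also make, and the count was 0 without Dox replicate 3, without NoDox replicate 1 or without NoDox replicate 2. Without Dox replicate 1 it was 2, with 1 gene lower. Axl, a receptor tyrosine kinase, was lower in every Dox array (-0.55 ± 0.17, adjusted p = 0.128). Ly75, the lectin DEC-205 of Langerhans and dendritic cells, had ratios of 5.06, 4.24 and 4.74 in Dox and 0.789 and 1.21 in NoDox (2.26 ± 0.54, adjusted p = 0.0669). Epcam, which Langerhans cells share with epithelial cells, was at 0.15. Il34, the ligand that maintains Langerhans cells in skin, was at 0.72 ± 0.21 (adjusted p = 0.113). The list's median ratio was 1.54 to 1.64 in Dox, with Dox replicate 3 the lowest, against 0.987 to 1.01 in NoDox. The signal was also summed over its 6 genes with a recovered level, in units of 1000 steps. This sum was 37.6, 39.0 and 54.5 in Dox replicates 1, 2 and 3, so highest in Dox replicate 3, and 19.2 to 21.0 in NoDox. Among these 6 genes Ccr6 had the widest Dox range, at 2.21, 2.15 and 6.22, against 1.03 and 0.970 in NoDox. Ccr6 was not past the threshold, and its share in the sum was not tested.

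Among 15 measured genes of conventional dendritic cells 3 rose and 0 fell, with a median of 0.68. The migration receptor Ccr7 was dim and had ratios of 19.3, 13.9 and 66.1 in Dox, against 0.822 and 1.18 in NoDox (4.73 ± 0.88, adjusted p = 0.0264, limma). The chemokine Ccl22 (3.93 ± 0.79) and the lectin Clec10a (0.75 ± 0.16) rose too. The count was 0 without Dox replicate 1, Dox replicate 3 or NoDox replicate 2, 1 without NoDox replicate 1 and 5 without Dox replicate 2. The lineage markers Flt3 (0.43 ± 0.62) and Zbtb46 (0.09 ± 0.28) overlapped between the groups.

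Of 14 macrophage genes 5 rose and 0 fell, with a median of 0.85. They were Cd68 (1.54 ± 0.15), Tyrobp (1.42 ± 0.18) and Adgre1 (0.97 ± 0.17), together with Marco and Lyz2, which were named after their values were seen. The list's median ratio was 2.00, 1.78 and 1.48 in Dox, lowest in Dox replicate 3, against 1.01 and 0.987 in NoDox. The count was 2 without NoDox replicate 1 and 2 without NoDox replicate 2. Summed over the 8 genes with a recovered level, the signal in units of 1000 steps was 108 to 129 in Dox and 54.6 to 57.2 in NoDox.

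Genes shared by all leukocytes were higher too. Of 8 such genes 4 rose, Itgb2 (1.98 ± 0.13), Laptm5 (1.44 ± 0.23), Cd53 (1.44 ± 0.26) and Rac2 (1.33 ± 0.26), while Ptprc, which encodes CD45, was at 1.01 ± 0.38 (adjusted p = 0.202). Their median ratio was 2.49, 1.99 and 4.00 in Dox, against 1.04 and 0.957 in NoDox. It thus ran in the same order over the Dox arrays as 7 of the 9 member genes, all but H2-Ab1 and Cd207. The count was 8 without Dox replicate 2, and 1 without NoDox replicate 1 or NoDox replicate 2.

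Of 8 B cell genes 0 were past the threshold in the limma fit, and 3 were at unadjusted p under 0.05, where 3197 of 18193 genes were. Most were far higher in Dox replicate 3 than in the other Dox arrays. The B cell antigen Ms4a1 had ratios of 1.19, 1.36 and 14.6 in Dox, against 0.982 and 1.02 in NoDox. Summed over 7 genes with a recovered level, the B cell signal in units of 1000 steps was 16.8 to 125 in Dox and 9.94 to 13.7 in NoDox. The list's median log2 fold change was 1.59, and 0.50 without Dox replicate 3.

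Genes of the lung alveolus moved with the members as well. Of 8 such genes 6 rose and 0 fell, led by the surfactant genes Sftpc (2.18 ± 0.25), Sftpa1 (2.99 ± 0.38) and Sftpd (2.71 ± 0.36). Their median ratio was 4.59, 3.26 and 8.35 in Dox, against 1.04 and 0.959 in NoDox, again highest in Dox replicate 3 and lowest in Dox replicate 2. Alveolar macrophages and alveolar type 2 cells carry class II and, in the macrophages, CD11c. The count was 0 without NoDox replicate 1 or NoDox replicate 2. Summed over the 3 genes with a recovered level, the signal in units of 1000 steps was 60.4 to 131 in Dox and 29.2 to 29.8 in NoDox. The lowest ratio in the deposited values is 0.01, held by 6 values, so a value of 0 could not occur. The part of macrophages, B cells, other leukocytes and lung RNA in the members' rise was not tested.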

How the data were processed

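Per the labels, RNA of 5 esophagus samples was hybridised to Affymetrix Mouse Genome 430 2.0 arrays, and signals were made with Microarray Suite (MAS 5.0) and normalized in GeneSpring 7.3.1. The deposited values are linear ratios. In 45099 of 45101 probe sets the NoDox ratios sum to 2 within 0.0001, so the denominator is the NoDox mean.

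Signals are whole steps times a factor per array. Factors were read from the most frequent ratio between arrays (0.959 to 1.07 of Dox replicate 1), then step numbers up to 50000 were searched at a relative tolerance of 3e-07. A level was found for 40055 probe sets (88.8%), and for 33 of 4000 with shuffled ratios (0.82%). Others got a lower bound.

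The test on log2 ratios came from limma 3.58.1 under R 4.3.3 (lmFit and eBayes with the mean log2 level as trend, 3 residual and 6.14 prior degrees of freedom), two-sided, with no offset or filter. A gene was represented by its probe set of highest mean level over the 5 arrays. For H2-Aa and H2-Ab1 this compares lower bounds, so which probe set is truly brightest is not known. With 3 and 2 arrays the smallest p of an exact permutation test is 0.1, so none was run, and all p-values come from limma's fits over all features. Python 3.11.15 with pandas 2.3.3, numpy 2.4.6 and matplotlib 3.10.9 served for tables and plots.

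The members and lists were chosen with earlier results of these data known. Named genes are the members, the class II pathway, the 3 of smallest p past the threshold per list, a few defining markers and the 5 genes nearest in pattern. Ly75, Ccr6, Il34, Axl, Ifng, Ifngr2, Irf1, Irf8, Cxcl10, Marco, Lyz2, Brd2, Psmb8 and Tap1 fall outside this rule and were chosen after their values were seen.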

Additional observations from a re-analysis of the deposited data

How the results depend on the processing

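The members' log2 fold changes were above 0 in all 126 values over the 14 alternatives per gene, the lowest being 0.005 for H2-DMa with the median over probe sets. In 103 the side of the threshold was as reported, in 17 a call was lost and in 6 gained, all of H2-DMa. With no trend the counts higher were 0 member genes, 0 member probe sets, 0 other class II pathway genes and 6 genes in all, and 0 genes lower. With the trend on the mean log2 ratio they were 0, 0, 0 and 0, and 0 lower (2383 genes at unadjusted p under 0.05). The other pathway genes higher numbered 3 with quantile normalization, with median centring and with dim genes left out, 6 with array weights, 4 at adjusted p under 0.1 (and 1 lower) and 0 at 0.01. At 0.01 the member probe sets higher were 5. Over all genes, 462 were higher and 532 lower with array weights, 468 and 526 at adjusted p under 0.1, 88 and 44 at 0.01, and 113 lower with quantile normalization and 133 with the median over probe sets. Leaving out 1 array gave 2 to 6 member genes, 1 to 10 member probe sets, 0 to 5 other pathway genes and 53 to 391 genes higher, and 7 to 540 genes lower. Where 1 NoDox array remained it was assumed to vary like the Dox arrays. With the replicate block, pairing arrays by title number, 5 other pathway genes were higher and 1 lower, and 508 genes lower in all. Deviations of same-numbered arrays correlated at 0.03 and 0.049 across genes. With 2 NoDox arrays the deviations of both mirror each other, so these values cannot decide whether same-numbered arrays share more than a number. The cause of these differences was not tested. The single-array fits of the marker lists were added after the data were seen. The number of arrays and the dim probe sets limit what could be called.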

Other observations

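The genes outside the members whose 5 log2 ratios lay nearest to the mean of H2-Aa, H2-Ab1, H2-Eb1 and Cd74 were sought among 12131 genes that were not dim and had a recovered level, by Euclidean distance over the 5 arrays. They were Ppp2r2b (distance 0.214), a regulatory subunit of protein phosphatase 2A, the immunoproteasome subunit Psmb9 (0.286), the leukocyte GTPase Rac2 (0.296), the interferon-inducible GTPase Ifi47 (0.310) and 4930562F07Rik (0.320). Psmb9 had ratios of 2.19, 2.18 and 2.65 in Dox, against 0.894 and 1.11 in NoDox, and rose by 1.23 ± 0.17 (adjusted p = 0.00784, limma). Rac2 (adjusted p = 0.0345) and Ifi47 (1.20 ± 0.20, adjusted p = 0.0174) rose too. Ppp2r2b (1.33 ± 0.58, adjusted p = 0.276) and 4930562F07Rik (1.37 ± 0.48, adjusted p = 0.183) did not pass the threshold. Bright genes with a lower bound for their level, such as Itgb2, Laptm5 and Cd53, were not among those compared. Of the members outside this mean, H2-DMa lay at a distance of 0.509, Ciita at 0.616, Cd86 at 0.654, Itgax at 1.32 and Cd207 at 2.05, and 2508 of the genes compared lay nearer than Cd207. The distances are a description of 5 arrays and were not tested.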
